A study of Mus musculus with 9 samples.

Results

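Transcripts that carry no gene name and that belong to no locus with a named gene were examined in the BALB/c mammary tumour cell line 4T1. They were selected on their level: a transcript is called a member here when its gene name is blank, no other transcript of its locus has a name, and its mean over the 9 libraries is at least 0.5 FPKM (fragments scaled by transcript length and by library depth). The rule took 3515 members in 3304 loci, out of 158719 transcripts in the deposited table and out of 6277 unnamed transcripts that lie in no named locus at any level. Of the members, 3499 were put together from the reads by the authors' assembler and have numbers beginning with MSTRG, and 16 are reference transcripts listed without a gene name.

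A table of this kind comes from transcript assembly, in which overlapping reads are chained into transcript models wherever they map, whether or not a gene is annotated there. Such models can be long noncoding RNAs, unannotated exons or extensions of genes, copies of repeats and retroviral elements, or scattered reads from unspliced RNA. In mouse cells many copies of repeats are nearly identical, so reads placed at 1 copy can come from another.

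The study took RNA from 4T1 cells on day 2, in 3 groups of 3 libraries. The NC group is labelled a negative control. The MK1775 group received MK1775, an inhibitor of Wee1, the kinase that holds back entry into mitosis by phosphorylating Cdk1. The third group is labelled Wee1 siRNA knockdown. In it Wee1 itself was listed at 13.1, 15.1 and 15.3 FPKM, against 11.5, 10.5 and 11 FPKM in NC and 14.9, 14.7 and 16.8 FPKM with MK1775. Wee1 was thus above NC in all 3 libraries that carry the siRNA label, so these are called the libraries labelled Wee1 siRNA throughout. All cells were grown in DMEM with 10% serum per the labels' protocols, and all 9 libraries share this line, medium and day. As to the dose of MK1775, its solvent, the transfection given to each group, and whether the numbers 1 to 3 stand for separate cultures or, under the siRNA label, for different siRNAs, the sources used here say nothing. The tests therefore measure the spread between these libraries, which may be technical, and a solvent or a transfection cannot be told apart from the treatment.

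Of the 6 epithelial markers, only Krt8 and Krt18 were high in every library. These keratins of simple epithelia were listed at 181 to 481 FPKM, while Epcam stayed between 0.0335 and 0.573 FPKM. Cdh1 was at 2.66 to 5.73 FPKM and Cldn4 at 0.0979 to 0.331 FPKM. The 6 epithelial markers summed to 410 to 477 FPKM in NC and to 705 to 781 FPKM in the other 6 libraries, nearly all of it from Krt8 and Krt18. The summed markers of immune cells reached 5.44 to 10.1 FPKM, those of stroma 2.23 to 3.6 FPKM and those of blood 0.1 to 1.17 FPKM. Of the immune markers, Cd3e and Lyz2 were at 0 in all 9. Cd14 was at 3.33 to 6.17 FPKM and Cd68 at 1.75 to 3.89 FPKM, while the epithelial marker Krt19 was at 1.23 to 1.96 FPKM. Itgam was at 0 in NC and at 0.167 to 0.545 FPKM in the other 6. Ptprc was at 0.0263 FPKM or less in NC and reached 0.698 FPKM in the others. Of the blood markers, Itga2b, an integrin of platelets and their precursors, was at 0.0813 FPKM or less in NC and at 0.713 to 1.09 FPKM in the other 6. The part of these shifts in the results below was not tested. The summed FPKM per library lay between 321551 and 332950. The depth is unknown, since no read counts were used, so precision is limited by the 3 libraries per group. In bulk RNA, fewer cells of a kind and less RNA per cell cannot be told apart.

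Most members were short pieces with 1 exon. The length ranged from 57 to 16832 nt with a median of 423 nt, against 2471 nt for the 19626 named transcripts at the same level. A single exon was listed for 2573 members (73.2%), and 2460 (69.99%) had no strand, all of them with 1 exon. The 942 members with more than 1 exon had up to 13. Among named transcripts at the same level 6.88% had a single exon.

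The level of most members was low. The median of their means was 0.903 FPKM and the highest 594 FPKM. There were 1512 members at 1 FPKM or more, 120 at 10 or more, and 11 at 100 or more. Just inside the threshold lay MSTRG.11099.1 on chromosome 17 (mean 0.5 FPKM), MSTRG.15285.1 on chromosome 3 (0.5001) and MSTRG.22318.1 on chromosome 7 (0.5004). Just outside it lay MSTRG.25843.1 on the X chromosome and MSTRG.20669.1 on chromosome 6 (both 0.4998) and MSTRG.16494.1 on chromosome 4 (0.4997). Both sides of this edge hold transcripts that NC lacks. MSTRG.15285.1 was listed at 0 in all 3 NC libraries and at 0.452 to 1.03 FPKM in the other 6, and MSTRG.16494.1 at 0 in NC and at 0.118 to 1.91 FPKM in the other 6.

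By the coordinates of the deposited table (GRCm39), most members lay outside the span of any named gene. Of the 3515, 688 lay within 5 kb of the nearest named gene, 1312 between 5 and 50 kb, and 466 farther away. Another 314 overlapped a named gene on the opposite strand, 111 on the same strand, and 584 overlapped one but had no strand. The remaining 40 lay on sequences with no named gene. The table gives no exon coordinates, so it cannot be said whether an overlapping member is exonic or intronic. Neighbouring members within 50 kb of each other joined into 2405 runs, and 130 loci held 2 or more members.

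The transcript identifiers of the 16 reference members were looked up in GENCODE M21, and 5 of the 16 were found there: the small nucleolar RNA Snord93, CT010467.1, which is typed as ribosomal RNA, and 3 transcripts of protein-coding type on unplaced scaffolds (CAAA01147332.1 and AC149090.1, the latter with 2). Snord93, a box C/D RNA of the kind that guides methylation of ribosomal RNA, is shown because it is a member of known identity. It lies at chr5:24057208-24057278 on the plus strand in GRCm39, within the span of 2700038G22Rik, and its 71 bases are taken by transcript identifier from GENCODE M21.
Snord93: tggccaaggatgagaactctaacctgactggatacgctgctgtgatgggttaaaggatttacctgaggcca
Snord93 (ENSMUST00000175580) was listed at 1.88, 1.56 and 2.58 FPKM in NC, at 1.13, 0.486 and 0.899 FPKM with MK1775, and at 1.99, 3.84 and 2.35 FPKM under the siRNA label. All 3 MK1775 values lay below all others, yet neither difference from NC passed the test (log2 difference -0.71 ± 0.24 SE, adjusted p = 0.0832 with MK1775, and 0.29 ± 0.24, adjusted p = 0.461, for the siRNA label, limma). The 3 libraries labelled Wee1 siRNA overlapped NC.

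How many members were present at all differed between NC and the other groups. In NC, 1582, 1487 and 1566 members reached 0.5 FPKM. With MK1775 the numbers were 3107, 3115 and 3003. Under the siRNA label they were 3162, 3166 and 3231. The lowest of the 6 other libraries thus held 3003 such members and the highest NC library 1582. Above 0 were 2212 to 2257 members in NC and 3466 to 3477 in the other 6 libraries. Named transcripts at 0.5 FPKM or more were also fewest in NC, by a smaller margin. They numbered 17864 to 18684 in NC and 18905 to 20640 in the other 6 libraries.

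The median level of a member followed the same order. It was 0.329, 0.281 and 0.319 FPKM in NC, 1.02 to 1.07 FPKM with MK1775, and 1.11, 1.23 and 1.55 FPKM under the siRNA label. Over the named transcripts tested, the median was 2.47 to 2.75 FPKM in all 9 libraries. Within the libraries labelled Wee1 siRNA the third stood above the others. The members were chosen by their mean over all 9 libraries, and 6 of these are not NC. A transcript seen only in those 6 could pass and then had to differ from NC, so these numbers describe the members and test nothing.

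**Figure D1:**
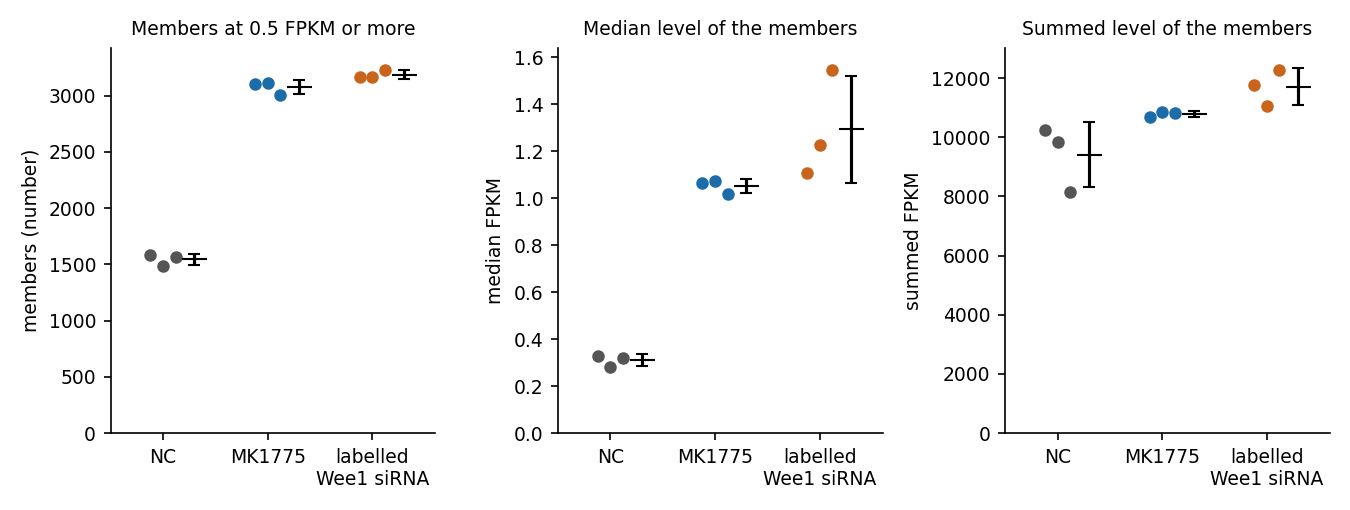
Each point is 1 library, in the groups NC, MK1775 and labelled Wee1 siRNA, and the bars show mean ± SD over 3 libraries. The panels give the number of members at 0.5 FPKM or more, the median FPKM of the 3515 members, and their summed FPKM. The first panel separates NC (1487 to 1582 members) from the other groups (3003 to 3231), while the summed level lies between 8155 and 12290 FPKM in all 9 libraries.

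The members listed at 0 in every library of a group numbered 1008 in NC (28.68%), 4 with MK1775 and 7 for the siRNA label. Among the 19626 named transcripts at the same level, 214 were at 0 in all of NC (1.09%), 41 with MK1775 and 48 for the siRNA label. Counted by group mean, 1745 members (49.64%) reached 0.5 FPKM in both other groups and not in NC. A further 1460 (41.54%) reached it in all 3 groups, 114 only under the siRNA label, 91 in NC and under the siRNA label, 58 in NC and with MK1775, 28 only with MK1775, and 19 only in NC. The file gives no counts, so a value of 0 cannot be turned into an upper limit.

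The summed level differed less between the groups. Members took 3.19%, 2.96% and 2.49% of all FPKM in NC, 3.3%, 3.35% and 3.32% with MK1775, and 3.65%, 3.39% and 3.7% under the siRNA label. The highest NC library lay just below the lowest of the others. The 2003 members with means under 1 FPKM added up to 584 to 664 FPKM in NC, 1551 to 1666 with MK1775 and 1765 to 2497 for the siRNA label. The 120 members at 10 FPKM or more added up to 7374, 7383 and 5508 FPKM in NC and to 5072 to 6426 FPKM in the other 6. The sum of the low members was thus higher in every library outside NC, and the sums of the high members overlapped. Of the low members 38.54% were at 0 in all of NC, against 2.5% of those at 10 FPKM or more. Members at 0 in NC passed the rule only through the other groups and had to be higher there. The contrast describes the members and tests nothing.

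Differences between groups were tested with limma on log2(FPKM + 1) over all 31008 transcripts with a mean of at least 0.5 FPKM. On this scale the fold change of a low transcript is understated. With MK1775, 1329 members were called higher than NC (37.81%) and 35 lower (0.996%). Over all transcripts tested, 11.1% were called higher and 5.6% lower. Of the members called higher, 733 were listed at 0 in all of NC and 80 had an NC mean of 0.5 FPKM or more. The median log2 difference was 0.54 over the members, 0.04 over all transcripts tested and -0.02 over the named ones. Both NC comparisons use the same 3 NC libraries.

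For the siRNA label against NC, 1576 members were called higher (44.84%) and 41 lower (1.17%), beside 12.9% and 6.14% of all transcripts. Over all transcripts this was 3988 higher and 1905 lower, and 3099 and 2366 after quantile normalization. Of those called higher, 896 were at 0 in all of NC and 94 had an NC mean of 0.5 FPKM or more. The median log2 difference was 0.68 over the members and 0.08 over all transcripts. In both comparisons all members called lower had an NC mean of 0.5 FPKM or more.

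Few of the members called higher reached 0.5 FPKM in NC. Over the 1460 members that reached 0.5 FPKM in each of the 3 groups, 80 were called higher with MK1775 (5.48%) and 28 lower (1.92%), and 94 (6.44%) and 35 (2.4%) for the siRNA label. This subset was formed after the data were seen and leaves out members that NC lacks, so its shares are not set against those of all transcripts. In this subset the median log2 difference was 0.01 with MK1775 and 0.06 for the siRNA label. The counts of members called lower moved by more than 1.5 times in both directions with the processing. They were 57 with MK1775 and 95 for the siRNA label under quantile normalization, and 16 and 21 with no filter on low values. As locus sums, which count loci of members, they were 105 and 142. The fit of 2 groups only gave 19 for the siRNA label. The counts called lower over the whole table moved too, from 1735 and 1905 of 31008 transcripts. They were 1948 and 2366 under quantile normalization, 3283 and 3263 of 15189 loci as sums, and 1150 and 1311 of 158719 transcripts with no filter. The members called lower also became fewer when single libraries were left out. With MK1775 they were 14 without NC replicate 1, 22 without NC replicate 3, and 21, 13 and 18 without MK1775 replicates 1, 2 and 3. For the siRNA label they were 27 without NC replicate 2 and 22 without Wee1 siRNA replicate 2. Over all transcripts the counts called lower fell in these fits as well.

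**Figure D2:**
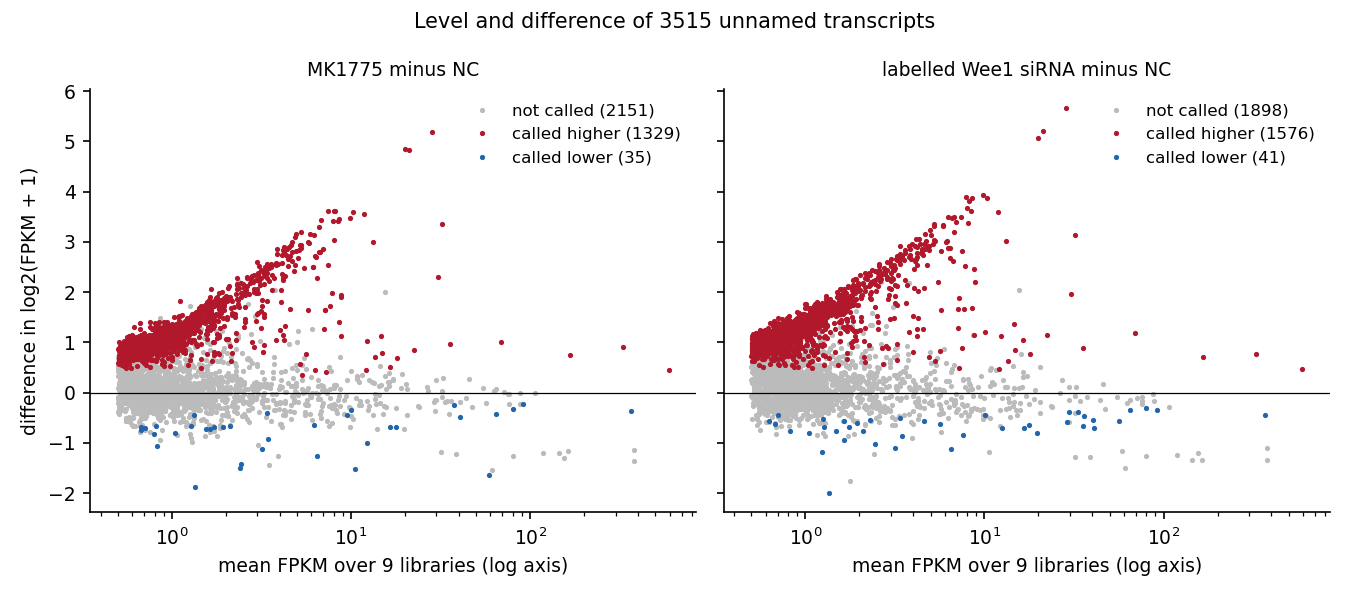
Each point is 1 of the 3515 members. The horizontal axis gives its mean FPKM over the 9 libraries on a log axis, and the vertical axis its difference in log2(FPKM + 1) from NC, for MK1775 (left) and the siRNA label (right). Members called higher (1329 and 1576) form a band that climbs with the mean, which is where members listed at or near 0 in NC must lie, and the members called lower (35 and 41) are spread along the level.

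Between MK1775 and the siRNA label no member was called by limma. Over all transcripts 0.0193% were called in either direction. At an unadjusted p under 0.05 there were 487 members, and the smallest adjusted p was 0.255. The median log2 difference, MK1775 minus the siRNA label, was -0.13 over the members and -0.03 over all transcripts. With MK1775 replicate 3 left out, 1 member was called. A count of 0 does not show that the groups were alike.

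The share called higher is given by length and exons as a description, with no test of the differences. Of the 1329 members called higher with MK1775, 1234 reached a mean of 0.5 FPKM in both other groups and not in NC, so they passed the filter through the groups where they are high. With MK1775, 55.93% of the 826 members over 1 kb were called higher, 35.97% of the 1582 between 300 nt and 1 kb, and 26.92% of the 1107 up to 300 nt. Of the 942 spliced members 49.89% were called higher, of the 113 with a single exon and a strand 40.71%, and of the 2460 without strand 33.05%. The shares for the siRNA label were 60.9%, 42.67% and 35.95% by length. Among members over 1 kb, 35.71% were at 0 in all of NC, against 22.94% of those up to 300 nt.

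Position was described in the same way. The share called higher with MK1775 was 34.59% within 5 kb of a named gene, 39.1% between 5 and 50 kb, and 33.48% farther away. It was 50.64% for members inside a named gene on the opposite strand and 44.14% on the same strand. For the 584 members that overlapped a named gene but had no strand it was 34.42%. The opposite and same strand classes hold only members with a strand, and 942 of those 1055 members had more than 1 exon. Strand-aware counting is not stated in the sources used here, so for overlapping members reads of the gene and of the member cannot be told apart.

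By chromosome, the share called higher with MK1775 ran from 19.05% of 42 members on Y and 25.61% of 164 on X to 54.26% of 129 on chromosome 15. Chromosome 1 held the most members (8.56%), and 49 lay on 14 unplaced scaffolds. On scaffold JH584299.1, 9 members were all at 0 in NC and summed to 23.3, 20.8 and 22.7 FPKM with MK1775 and to 28.9, 28.9 and 30.5 FPKM for the siRNA label. On GL456211.1, 6 members were likewise at 0 in NC and summed to 5.79, 5.24 and 7.02 FPKM and to 6.36, 9.41 and 11 FPKM. Both scaffolds were chosen after their values were seen. The other scaffolds with 9 members had their highest mean sums in NC. MU069435.1 had 259.6 FPKM in NC, 106.1 with MK1775 and 120.1 for the siRNA label, and JH584304.1 had 12.87, 8.78 and 10.62 FPKM.

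The nearest named gene was tested as well, on FPKM summed over the named transcripts of a gene, as a description of the surroundings. A name carried by several loci was summed over all of them, so its value is not that of the local copy alone. For the 1009 members that overlap a named gene, an overlapped gene counts as the nearest, and reads of gene and member cannot be told apart. Over all genes 18% were called higher with MK1775 and 20.8% lower, and 20% and 20.9% for the siRNA label. Of the 1329 members called higher with MK1775, 377 had a nearest gene with enough signal to be tested. Of these 377 members, 118 had a nearest gene called higher (31.3%) and 69 one called lower (18.3%). Among the members not called, these numbers were 107 (17.07%) and 141 (22.49%) of 627. Among the members called higher for the siRNA label they were 155 (34.75%) and 75 (16.82%) of 446. A gene nearest to several members counts once for each of them. These shares of members are thus not on the same footing as the shares over all genes. For the remaining 952 members called higher with MK1775 and 1130 for the siRNA label no nearest gene was tested, because it was below the level required or because the sequence has no named gene (13 and 17 members).

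The member with the highest mean was MSTRG.24254.1, a single-exon transcript of 8664 nt at chr8:124152612-124161275 on the minus strand, inside the span of Def8 (a gene of lysosome positioning) and opposite to it. It was listed at 497, 463 and 460 FPKM in NC, 569, 740 and 635 FPKM with MK1775, and 672, 707 and 603 FPKM under the siRNA label. Every value outside NC lay above every NC value. It rose by 0.44 ± 0.0993 (SE) on the log2 scale with MK1775 (adjusted p = 0.0198) and by 0.48 ± 0.0993 for the siRNA label (adjusted p = 0.0125).

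The same interval gave 3 further members, so the 4 are not independent of each other. MSTRG.24255.1, of the same coordinates on the plus strand, was listed at 212, 222 and 207 FPKM in NC, 495, 351 and 372 FPKM with MK1775, and 388, 308 and 415 FPKM for the siRNA label, and rose by 0.91 (adjusted p = 0.00536) and 0.78 (adjusted p = 0.00862). MSTRG.24254.2, with 2 exons, had means of 116 FPKM in NC, 196 with MK1775 and 189 for the siRNA label, and rose by 0.76 and 0.7. MSTRG.24255.2, with 3 exons, rose too, from a mean of 38.7 FPKM in NC to 79.2 and 89.4 FPKM, and was chosen after its values were seen. Members on both strands of 1 interval can split the same reads, so how the level divides between them is uncertain. Whether the interval is a retroviral or other repeat element, whose copies elsewhere could supply its reads, was not tested.

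Another of the 10 highest members was MSTRG.10566.1, a spliced transcript of 3011 nt at chr17:35215681-35219388 on the minus strand, 575 bp upstream of Vars, which encodes valyl-tRNA synthetase and runs the other way. It was listed at 424, 442 and 448 FPKM in NC, 340, 350 and 335 FPKM with MK1775, and 326, 315 and 327 FPKM for the siRNA label. The 3 NC values lay above all others. It fell by 0.36 with MK1775 (SE 0.0374, adjusted p = 0.000739) and by 0.44 for the siRNA label (SE 0.0374, adjusted p = 0.000246).

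The other 6 of the 10 highest members had a library order of their own. These are MSTRG.14596.1 (chr3:5925398-5925837, 20055 bp from Gm37350), MSTRG.9731.1 (chr16:57211662-57212042, inside Filip1l), MSTRG.8106.1 (chr14:104953208-104953426, inside D130009I18Rik), MSTRG.25711.1 (the first 607 bases of scaffold MU069435.1), MSTRG.11676.1 (chr18:68825133-68825361, 47110 bp from Mir6356) and MSTRG.22838.1 (chr8:15569774-15570125, 17457 bp from Gm45677). All 6 have 1 exon, no strand and a length of 219 to 607 nt. MSTRG.14596.1 was listed at 759, 800 and 356 FPKM in NC, 204, 210 and 299 FPKM with MK1775, and 418, 207 and 151 FPKM for the siRNA label. NC replicates 1 and 2 stood far above NC replicate 3, and the first library labelled Wee1 siRNA above the others.

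The other 5 likewise had NC replicates 1 and 2 on top. MSTRG.9731.1 was listed at 714, 758 and 320 FPKM in NC, 206, 244 and 319 FPKM with MK1775, and 440, 213 and 187 FPKM for the siRNA label. None of the 6 passed the test in either comparison, with adjusted p from 0.0722 to 0.135 with MK1775 and from 0.0678 to 0.116 for the siRNA label. The MK1775 values lay below all NC values in all 6, and those of the siRNA label overlapped NC. Rn18s, the named transcript of the 18S ribosomal RNA, was listed at 1333, 1068 and 543 FPKM in NC, 246, 255 and 338 FPKM with MK1775, and 580, 302 and 363 FPKM for the siRNA label. Its high libraries were the same, NC replicates 1 and 2 and the first library labelled Wee1 siRNA. Its part in the 6 members was not tested.

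**Figure D3:**
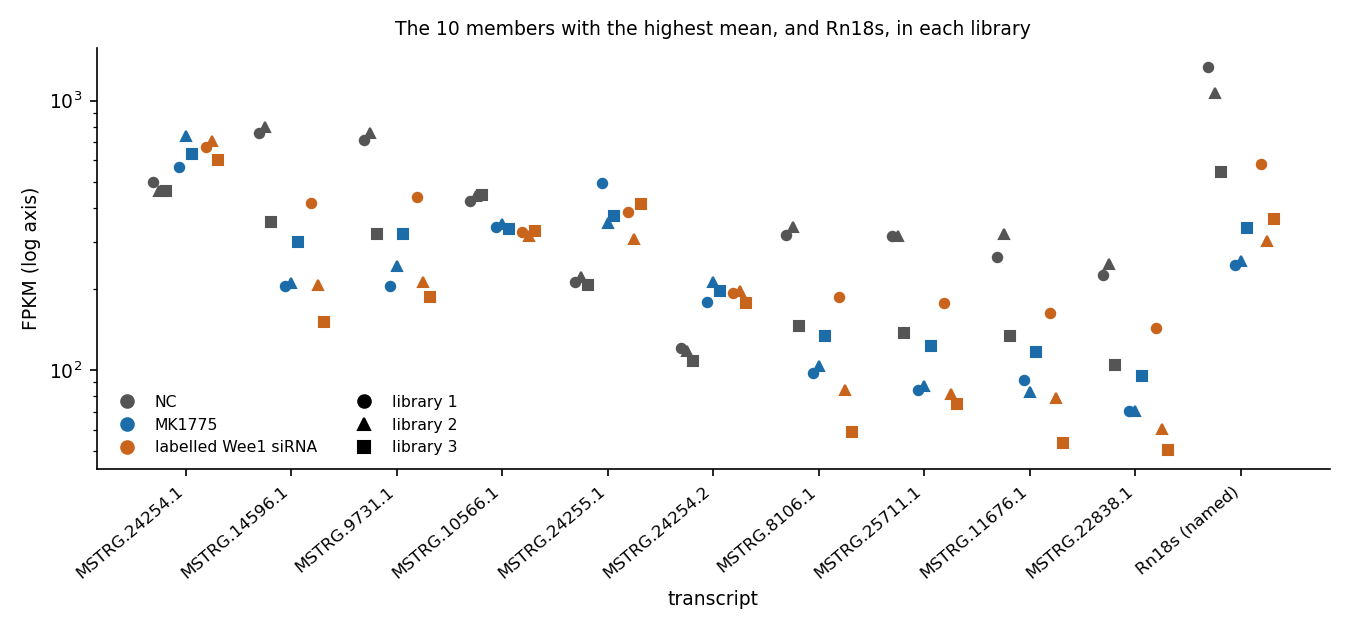
The 10 members with the highest mean and the named transcript Rn18s, with FPKM on a log axis. Colours give the group and point shapes the library number. The 4 members MSTRG.24254.1, MSTRG.24255.1, MSTRG.24254.2 and MSTRG.10566.1 keep NC apart from all other libraries, while in the other 6, as in Rn18s, NC replicate 3 lies well below NC replicates 1 and 2.

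The largest rise was that of MSTRG.11773.2, a spliced transcript of 289 nt at chr18:80059220-80062777 on the minus strand, within the span of the predicted gene Gm36718 and opposite to it. It was listed at 0 in all NC libraries, at 33.9, 40.6 and 32.1 FPKM with MK1775, and at 44.3, 49.7 and 55.3 FPKM for the siRNA label. No library outside NC came near 0. The log2(FPKM + 1) difference was 5.18 with MK1775 (adjusted p = 5.13e-07) and 5.66 for the siRNA label (adjusted p = 3.03e-07). It depends on the pseudocount, since NC is listed at 0, and no fold is given.

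There were 3 large rises on distal chromosome 13, where the Tcstv genes lie. MSTRG.7073.1 (chr13:120620957-120623052, 3 exons, 4086 bp downstream of Gm20767) was at 0 in NC, at 28.8, 28 and 26.2 FPKM with MK1775, and at 30.7, 33.1 and 33.3 FPKM for the siRNA label. MSTRG.7055.1 (chr13:120367261-120368877, 2 exons, 4754 bp downstream of Gm21761) was at 0 in NC, at 29, 26.6 and 26.7 FPKM with MK1775, and at 32.6, 34.7 and 40.2 FPKM for the siRNA label. Both rose in both comparisons, by 4.84 and 4.83 with MK1775 (adjusted p = 1.54e-07 and 3.76e-07) and by 5.06 and 5.2 for the siRNA label (adjusted p = 1.09e-07 and 2.11e-07). MSTRG.7072.1 (chr13:120580242-120581393, 18374 bp upstream of Gm21378) was at 0 in NC and rose to means of 9.76 FPKM with MK1775 and 13.9 FPKM for the siRNA label. Tcstv1, a gene known from cleavage-stage embryos that lies within 50 kb of MSTRG.7055.1, was at 0.024 FPKM or less in NC, at 13.3 to 16.1 FPKM with MK1775 and at 20.7 to 24.7 FPKM for the siRNA label.

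The other rises named by size lay on 5 chromosomes. MSTRG.14444.1 (chr2:168969542-168974753, 17207 bp from Gm14258) was at 0 in NC and at 10.7 to 14.5 FPKM in the other 6 libraries. MSTRG.4957.1 (chr12:20916664-20919032, 1 exon of 2369 nt, 5094 bp from 3110053B16Rik) was at 0.0466 FPKM or less in NC and at 10.4 to 16 FPKM elsewhere. MSTRG.1148.1 (chr1:138271400-138276024, 3 exons, 28978 bp from Gm28500) had 0, 0.0927 and 0 FPKM in NC and 10.2 to 13.5 FPKM elsewhere. All 3 rose in both comparisons, by 3.61 to 3.62 with MK1775 and by 3.49 to 3.81 for the siRNA label, and no library of NC overlapped the others.

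A further pair came in through the size of their rise under the siRNA label, and both were called higher with MK1775 too. MSTRG.10795.1 (chr17:48487071-48487928, 12628 bp from A530064D06Rik) went from 0.269, 0.0341 and 0.205 FPKM in NC to 14.2, 14.5 and 23 FPKM, with 11.2, 13.7 and 11.3 FPKM under MK1775. MSTRG.23281.1 (chr8:70056120-70057573, 5935 bp from Zfp868) had 0.0688, 0 and 0.0754 FPKM in NC, 11, 12.6 and 21.1 FPKM for the siRNA label and 11.4, 12.2 and 8.39 FPKM with MK1775. They rose by 3.94 and 3.87 for the siRNA label (adjusted p = 1.65e-05 and 4.97e-05). In both, the third library labelled Wee1 siRNA stood above the others. In the comparison they were named for, all rises of these paragraphs kept their call under each of the 20 alternative settings tried. These members were at 0.269 FPKM or less in NC and were picked for the size of their rise. They passed the filter through the groups where they are high, and the settings use the same values again. The kept calls are thus no further evidence.

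**Figure D4:**
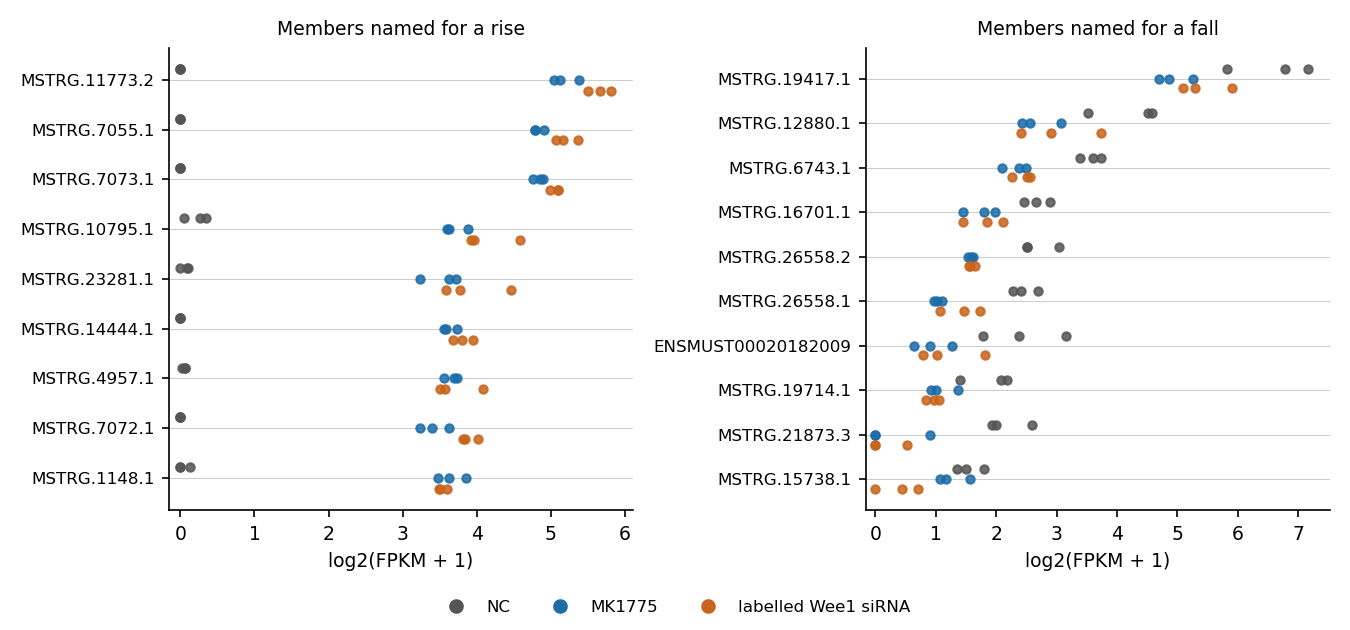
Members named for a rise (left) and for a fall (right) in at least 1 comparison with NC. Each point is 1 library on the log2(FPKM + 1) scale, coloured by group. On the left the NC points sit at or near 0, apart from all others, and on the right the gaps are smaller and the siRNA label overlaps NC for 3 of the members.

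Falls were fewer and smaller. MSTRG.21873.3 (chr7:82420317-82421243, 2 exons, opposite to Efl1, whose product helps ribosome maturation) was listed at 5.04, 2.83 and 2.99 FPKM in NC, 0.881, 0 and 0 FPKM with MK1775, and 0, 0 and 0.43 FPKM for the siRNA label. All NC values lay above all others. It fell by 1.87 with MK1775 (adjusted p = 0.0057) and by 2 for the siRNA label (adjusted p = 0.00337). With a pseudocount of 0.01 both calls were lost, at log2 differences of -6.29 and -6.63.

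MSTRG.6743.1 (chr13:81213926-81214474, 2 exons, opposite to 9330111N05Rik) had 12.3, 9.5 and 11.2 FPKM in NC, 4.17, 4.64 and 3.26 FPKM with MK1775, and 3.8, 4.89 and 4.68 FPKM for the siRNA label. It fell by 1.26 (adjusted p = 0.00134) and by 1.13 (adjusted p = 0.00164), with NC apart from both groups. MSTRG.26558.1 and MSTRG.26558.2, 2 forms of a locus on the Y chromosome (the first at chrY:90752479-90755737, nearest gene Gm21860), had means of 4.53 and 5.56 FPKM in NC, 1.05 and 1.98 FPKM with MK1775, and 1.74 and 2.01 FPKM for the siRNA label. Both fell in both comparisons. The first fell by 1.42 with MK1775 (adjusted p = 0.00236) and the second by 1.1 for the siRNA label (adjusted p = 0.00244).

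Other named falls depended on single libraries and on the filter. MSTRG.19417.1 (chr6:3200824-3201614, 6255 bp from Gm2651) was listed at 142, 109 and 55.7 FPKM in NC, 25, 28.2 and 37.2 FPKM with MK1775, and 58.8, 33.2 and 38.3 FPKM for the siRNA label. MSTRG.12880.1 (chr2:20904656-20905022, inside Arhgap21) had 21.8, 22.8 and 10.4 FPKM in NC, 4.36, 4.88 and 7.43 FPKM with MK1775, and 12.3, 6.52 and 4.34 FPKM for the siRNA label. Both fell with MK1775, by 1.65 (adjusted p = 0.0172) and 1.51 (adjusted p = 0.0381), and in both, as in Rn18s, NC replicates 1 and 2 were above NC replicate 3. The part of Rn18s in these falls was not tested. The call for MSTRG.19417.1 was lost without NC replicate 1 (-1.36), NC replicate 2 (-1.55), MK1775 replicate 1 (-1.53) or MK1775 replicate 2 (-1.61). That for MSTRG.12880.1 was lost without NC replicate 1 (-1.36), NC replicate 2 (-1.33), any 1 MK1775 library (-1.38, -1.45 and -1.71) or Wee1 siRNA replicate 2 (-1.51). Both calls were also lost with no filter on low values.

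The reference transcript ENSMUST00020182009 (57 nt at chr9:56130999-56131055, inside Peak1 on its strand) had 4.21, 7.88 and 2.46 FPKM in NC, 0.863, 0.552 and 1.39 FPKM with MK1775, and 0.722, 2.51 and 1.04 FPKM for the siRNA label. The last of these groups overlapped NC. It fell by 1.51 with MK1775 (adjusted p = 0.0367), and the call was lost without NC replicate 1 (-1.54), NC replicate 2 (-1.15), any 1 MK1775 library (-1.49, -1.36 and -1.67) or Wee1 siRNA replicate 3 (-1.51). MSTRG.16701.1 (chr4:103421479-103422427, opposite to Gm12715) had 5.33, 4.52 and 6.39 FPKM in NC, 2.5, 1.75 and 2.94 FPKM with MK1775, and 1.74, 3.31 and 2.61 FPKM for the siRNA label. It fell by 0.92 with MK1775 (adjusted p = 0.0236) and by 0.87 for the siRNA label (adjusted p = 0.0267), and lost the call under the siRNA label without NC replicates 1 (-0.87) or 3 (-0.76) or Wee1 siRNA replicates 1 (-0.69) or 3 (-0.89). MSTRG.19714.1 (chr6:44769864-44770232, 28273 bp from Gm44212) had 3.55, 3.24 and 1.65 FPKM in NC, 1.59, 0.901 and 0.994 FPKM with MK1775, and 1.08, 0.785 and 0.961 FPKM for the siRNA label. It fell by 0.94 for the siRNA label (adjusted p = 0.0266), and lost the call without NC replicates 1 (-0.79) or 2 (-0.84) or any 1 library labelled Wee1 siRNA (-0.99, -0.88 and -0.94). The calls of these 3 members, those of the last 2 under the siRNA label, were also lost with no filter on low values and in the fit of only the 2 groups compared.

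MSTRG.15738.1 (chr3:122122034-122129436, 7343 nt, opposite to Bcar3) had 1.56, 1.84 and 2.49 FPKM in NC, 1.1, 1.26 and 1.95 FPKM with MK1775, and 0.354, 0.624 and 0 FPKM for the siRNA label. It fell by 1.17 for the siRNA label (adjusted p = 0.00987). The call was lost with a pseudocount of 0.01 (-3.87), and also when all transcripts of its locus were summed (-0.02).

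Members often lay in runs, and members of a run are not independent of each other. The runs described were chosen after their values were seen. In the run of 14 members beside Trappc11, a gene of vesicle transport (chr8:47918771-47937469), the sum was 0.431, 0.301 and 0.442 FPKM in NC, 29.5, 31.5 and 24.7 FPKM with MK1775, and 25.7, 38.9 and 69.4 FPKM for the siRNA label. It holds MSTRG.23153, the locus with the most members (8), on the plus strand, and MSTRG.23152 on the minus strand of the same stretch, so how reads divide between them is uncertain. The third library labelled Wee1 siRNA stood well above the others there. In the run of 8 members beside Gm36718 (chr18:80055578-80070432), which includes MSTRG.11773.2, the sum was 0 in all of NC, 48, 56 and 46.8 FPKM with MK1775, and 61.9, 68.1 and 80.1 FPKM for the siRNA label.

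Other runs separated NC from the rest in the same way. Beside the Tcstv genes (chr13:120690865-120773691, 8 members) the sum was 0.487, 0.268 and 0.595 FPKM in NC, 21.6 to 26.9 FPKM with MK1775 and 29.7 to 37.3 FPKM for the siRNA label. Beside Spry2, an inhibitor of receptor tyrosine kinase signalling (chr14:106158923-106215558, 11 members), it was 0.408 to 0.903 FPKM in NC, 9.24 to 10.4 FPKM with MK1775 and 10.5 to 19.8 FPKM for the siRNA label. Beside 5033404E19Rik (chr1:185281812-185359820, 9 members) it was 0, 0 and 0.0622 FPKM in NC, 9.25 to 11.9 FPKM with MK1775 and 11.9 to 19.3 FPKM for the siRNA label.

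Next to MSTRG.23153 in number of members came 3 loci with 7 each, and they differed in direction. MSTRG.1214 (chr1:149382265-149460382, nearest gene Gm29398) summed to 11.3, 10.5 and 10.8 FPKM in NC, 11.5, 11.2 and 8.98 FPKM with MK1775, and 9.86, 8.1 and 13.3 FPKM for the siRNA label, so its groups overlapped. MSTRG.26534 (chrX:169090826-169097966), near Asmt, a gene of the pseudoautosomal region that X and Y share, summed to 5.37 to 5.86 FPKM in NC, 6.3 to 8.5 FPKM with MK1775 and 7.66 to 8.17 FPKM for the siRNA label, with NC below all others. On scaffold JH584304.1, MSTRG.25710 had its highest sums in NC, with 11.7, 12.4 and 12.6 FPKM in NC, 7.4 to 8.2 FPKM with MK1775 and 8.53 to 8.92 FPKM for the siRNA label. These sums are descriptions and were not tested.

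**Figure D5:**
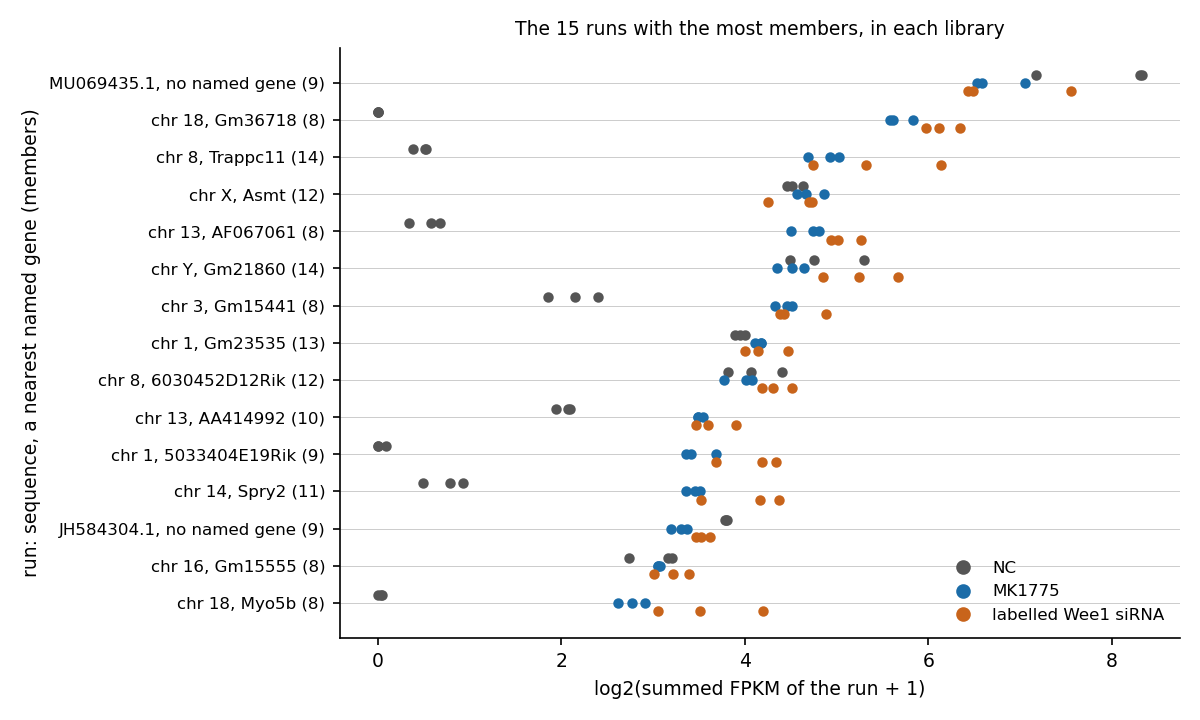
The 15 runs with the most members, each named by its sequence and 1 nearest named gene, with the number of members in brackets. Points are libraries, on log2(summed FPKM + 1), coloured by group. In the runs beside Gm36718, Trappc11, AF067061, Spry2 and 5033404E19Rik the NC libraries lie near 0 and apart, whereas those beside Asmt, Gm21860 and Gm15555 overlap.

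The Y chromosome held 42 members, 14 of them in a run at chrY:90728858-90836551 that summed to 21.5 to 38.5 FPKM in NC, 19.4 to 24 FPKM with MK1775 and 27.9 to 49.7 FPKM for the siRNA label. The Y-linked genes Ddx3y, Eif2s3y, Kdm5d and Uty were at 0 in all 9 libraries. The reads given to the Y members, MSTRG.26558.1 and MSTRG.26558.2 among them, thus came without reads from these genes. Whether they stem from copies on other chromosomes was not tested.

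Lists of named genes were used to see which members lie close to known families. Of the cleavage-stage embryo families (Zscan4, Tcstv, Eif4a3l, Usp17l, Tdpoz, Pramel, Obox, Oog and others), multicopy genes active in early embryos, 29 of 141 genes were tested. With MK1775, 24 of them were called higher and 1 lower, and for the siRNA label 27 and 0. Over all genes it was 18% higher and 20.8% lower with MK1775, and 20% and 20.9% for the siRNA label. The median log2 difference of the 29 was 1.41 and 1.71, beside -0.03 and 0.01 over all genes. Eif4a3l1 was at 0.0363 FPKM or less in NC, at 27.5 to 32.9 FPKM with MK1775 and at 35.7 to 36.7 FPKM for the siRNA label. Within 50 kb of a gene of these families lay 46 members, of which 32 were called higher with MK1775 and 40 for the siRNA label, and none lower, beside 37.81% and 44.84% called higher over all members and 11.1% and 12.9% over all transcripts. Some of the 46 lie in runs or share a locus. Their median log2 difference was 0.93 and 1.29, beside 0.54 and 0.68 over all members. Most of the 46 had an NC mean under 0.5 FPKM, so they passed the filter through the groups where they are high. Among those at 0.5 FPKM or more in NC, only MSTRG.16688.1 was called higher with MK1775, and none for the siRNA label. The counts thus describe these members and test no link to the families.

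As examples chosen after their values were seen, MSTRG.15306.1 (chr3:93978153-93978815, 114 bp from Tdpoz7) was at 0 in NC, at 4.21, 3.62 and 4.71 FPKM with MK1775 and at 4.71, 5.93 and 6.25 FPKM for the siRNA label. MSTRG.20840.1 and MSTRG.20856.1, of 218 and 216 nt near Zscan4a and Zscan4-ps1 on chromosome 7, had almost the same values. With MK1775 these were 6.29, 8.29 and 5.89 FPKM for the first, and 6.33, 8.29 and 5.94 FPKM for the second. Their levels are uncertain, since near-identical copies can share reads, and this holds for the multicopy families in general.

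Of the replication-dependent histone genes, which are transcribed in S phase from clusters, 40 of 65 were tested. Of these, 32 were called higher with MK1775 and 33 for the siRNA label, with none lower. Over all genes 18% and 20% were called higher, and 20.8% and 20.9% lower. The median log2 difference of the 40 was 1.83 and 1.8. The filter on the mean applies here too. Genes near 0 in NC, such as H3c2 (0.12 to 0.197 FPKM), entered only through the groups where they are high. H1f2 went from 5.47, 6.49 and 4.91 FPKM in NC to means of 119 FPKM with MK1775 and 116 FPKM for the siRNA label. Few members, 7, lay within 50 kb of such a gene, and 6 were called higher in each comparison. Over all members 37.81% and 44.84% were called higher, and over all transcripts 11.1% and 12.9%. The 6 had NC means of 0.2445 FPKM or less, so they passed the filter through the groups where they are high. MSTRG.6090.1, with an NC mean of 1.755 FPKM, was called in neither comparison (adjusted p = 0.76 and 0.734, limma). The counts thus describe these members and test no link to the histone genes. Of the 6 called higher, 4 come from 1 stretch near H4c17 (MSTRG.6058.1, MSTRG.6058.2, MSTRG.6058.3 and MSTRG.6059.1), the first 2 with the same start and end. These 4 are thus not independent of each other. MSTRG.6058.2 (chr13:21996088-22004312, opposite to H4c17 and chosen after its values were seen) was at 0.0315, 0.071 and 0 FPKM in NC, at 8.93, 7.82 and 7.98 FPKM with MK1775, and at 6.4, 6.61 and 6.27 FPKM for the siRNA label. The reference member ENSMUST00020182383 (368 nt, chr13:51356734-51357101, opposite to the histone pseudogene H2af-ps2, also chosen after its values were seen) had 3.02, 4.6 and 4.3 FPKM in NC, 46.2, 51.9 and 50.9 FPKM with MK1775, and 47.9, 46.6 and 34.6 FPKM for the siRNA label. It rose by 3.36 and 3.15 (adjusted p = 1.67e-05 and 2.14e-05).

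A list of named long noncoding RNAs was read the same way. Of its 56 genes 32 were tested, with 11 called higher and 3 lower with MK1775, and 14 and 3 for the siRNA label. Over all genes 18% and 20% were called higher, and 20.8% and 20.9% lower. The median log2 difference of the 32 was 0.22 and 0.37. Zfas1, a host of small nucleolar RNAs, was at 38.3 to 43.3 FPKM in NC, 112 to 119 FPKM with MK1775 and 113 to 122 FPKM for the siRNA label. Snhg1, another such host, went from 33.7 to 43.2 FPKM in NC to 126 to 134 FPKM and 127 to 141 FPKM. Of the 13 members within 50 kb of a gene on this list, 4 were called higher with MK1775 and 6 for the siRNA label, and none lower, which is near the 37.81% and 44.84% of all members. Beside Pvt1, the noncoding neighbour of Myc, MSTRG.8543.1 (chr15:62146444-62148807, on the opposite strand, chosen after its values were seen) had 0.32, 0.226 and 0.198 FPKM in NC, 1.81, 1.54 and 1.66 FPKM with MK1775, and 1.3, 1.32 and 1.55 FPKM for the siRNA label.

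The longest member, MSTRG.21390.1 (16832 nt in 2 exons, chr7:43803375-43826646, opposite to Gm45136), was at 0 in NC, at 1.55, 1.36 and 1.4 FPKM with MK1775, and at 1.48, 2.07 and 3.06 FPKM for the siRNA label. It rose by 1.28 (adjusted p = 0.00303) and 1.65 (adjusted p = 0.00083). Of the shortest members, ENSMUST00020182858 (57 nt, chr13:9884505-9884561), had 1.88, 1.04 and 0.691 FPKM in NC, 0.178, 0 and 0.801 FPKM with MK1775, and 0.988, 0.798 and 0 FPKM for the siRNA label, and was not called in either comparison (adjusted p = 0.207 and 0.397).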

How the data were processed

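Per the submitters' processing notes, FastQC, Trim Galore, HISAT2 and StringTie were used with GRCm39, without versions. The authors deposited FPKM values, 1 per transcript and library, for reference and assembled transcripts. RNA was extracted with an RNeasy kit and libraries made with an NEBNext Ultra kit, per the labels' protocols. Strandedness, selection of poly(A) RNA and the libraries assembled: not given in the sources used here. Low FPKM values were checked for whole reads: 26% to 31.9% lay within 0.1 of a whole multiple per library, so reads could not be recovered and depth is unknown.

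All 9 libraries entered 1 limma 3.58.1 fit (R 4.3.3) on log2(FPKM + 1) without covariates, over transcripts with a mean of at least 0.5 FPKM, with lmFit, contrasts.fit and eBayes with trend. Tests were two-sided, adjusted by Benjamini-Hochberg over all 31008 transcripts, threshold 0.05. Values marked SE come from this fit. Genes were tested alike on summed FPKM of their named transcripts. An exact permutation test of 3 against 3 cannot go below 0.1. The fit was tested on simulated data.

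Members and lists (3 gene lists, cell type markers) were chosen with earlier results of these data known. Members are named by rule: the 10 highest means, the 6 largest called rises and falls against NC without overlap (1 per locus), the transcripts at the threshold, the 3 loci with most members, and the longest and shortest, with, for each gene list, the genes of smallest adjusted p. Members outside this rule are marked where named. The rule for MK1775 against the siRNA label named none. Alternatives were other pseudocounts, filters, scalings, a replicate block, 2-group fits, eBayes without trend, locus sums and leaving out each library. No genome of the files' build was used here, so no other sequences are shown.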

Additional observations from a re-analysis of the deposited data

How the results depend on the processing

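Counts of members called against NC stayed within 1.5 times of those reported (1364 with MK1775 and 1617 for the siRNA label) under all but these settings. With transcripts and members limited to a mean of at least 1 FPKM, 583 and 620 of 1512 were called, since fewer members are counted. Limited to the 1460 members that reach 0.5 FPKM in each group, a setting chosen after seeing the data, 108 and 129 were called. The number of members was 4497 at a threshold of 0.25 FPKM. Leaving out 1 library at a time gave 948 to 1503 members with MK1775, 1331 to 1592 for the siRNA label, and 0 to 1 between these groups. Members called lower (35 and 41) numbered 57 and 95 under quantile normalization, 105 and 142 as locus sums, which count loci, and 16 and 21 with no filter. For the siRNA label it was 19 in the fit of 2 groups only. The counts called lower over the whole table moved under these settings as well. The cause was not tested. Quantile normalization also moved the median log2 difference of all transcripts from 0.04 and 0.08 to -0.07 and -0.07. Of 480 results for named members under alternatives, 440 kept direction and call, 40 lost the call and 0 reversed.

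No pairing by replicate number was seen (correlation of same-numbered libraries -0.03 to 0.009, of others -0.039 to 0.041). This cannot exclude that same-numbered libraries were grown or prepared together. With the replicate number as a block, 1076, 1443 and 0 members were called, of which 18 and 24 were lower than NC in the first 2 comparisons. Among named members the block ended the calls of ENSMUST00020182009 (-1.51), MSTRG.12880.1 (-1.51) and MSTRG.16701.1 (-0.87).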
